A study of Mus musculus with 2 samples.

Results

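The 6 IGF-binding protein genes Igfbp2, Igfbp3, Igfbp4, Igfbp5, Igfbp6 and Igfbp7 were taken by symbol from the 27998 genes counted in single cells of mouse femoral metaphysis, and all 6 were found in both libraries. The cells came from 1-month-old Gli1-CreERT2; Ai9 mice of a mixed background, which received tamoxifen daily for 3 days and then 3 daily injections of vehicle or of teriparatide, an active fragment of parathyroid hormone, at 400 ng per g body weight. Ai9 marks with tdTomato every cell in which Cre acted and all its descendants, so the sorted population (tdTomato+, CD31-, CD45-, Ter119-) was defined by past activity of the Gli1 promoter and not by present Gli1 expression. Both groups carried the same alleles and received the same tamoxifen. The study's methods give 5 mice per group, 3 male and 2 female, and there was 1 10x Genomics 3′ library per group, so that treatment cannot be told apart from library and no value below has a replicate check.

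The insulin-like growth factors Igf1 and Igf2 act on bone cells mainly through the receptor Igf1r, and the binding proteins are secreted factors that hold the ligands in the extracellular space, prolong their life or keep them from the receptor. Igfbp3 is the main carrier in serum, Igfbp4 is known as an inhibitor that is released from its ligand by the protease Pappa, and Igfbp5 binds to bone matrix. Igfbp6 prefers Igf2, and Igfbp7 is a relative with low affinity for the ligands. Osteoblasts, marrow stromal cells and growth plate chondrocytes are known sources of several of them.

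The vehicle library held 1286 barcodes with 10567335 unique molecular identifiers (UMIs, 1 per captured transcript) and the teriparatide library 2142 barcodes with 26270041. After removal of barcodes with more than 10% mitochondrial UMIs or with gene counts outside the limits of the study, 549 and 1217 cells remained. Although the sort was against CD45 and Ter119, 73 and 442 of these were hematopoietic-like and 51 and 165 erythroid-like, and 1 and 3 cells with Ptprc, the CD45 gene, were also left out, which left 424 and 607 mesenchymal cells with a median of 12236 and 21287 UMIs. Among mesenchymal cells whose sex could be called from Y-linked genes and Xist, 52.6% were male in the vehicle library and 90% in the teriparatide library, so some ratios are also given within male or female cells. The libraries shared 2 barcodes, carried by 3 kept cells.

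Clusters were named by marker genes as osteoblast-like (OB, 96 vehicle and 93 teriparatide cells), osteocyte-like (17 and 37), preosteoblast-like (preOB, 59 and 53), marrow adipogenic lineage progenitor-like (MALP, 125 and 80, marked by Lepr, Cxcl12 and Adipoq), chondrocyte-like osteoprogenitor-like (COP, 66 and 264, marked by Sox9, Col2a1 and Acan) and hypertrophic chondrocyte-like (7 and 22). A further cluster of 54 and 58 cells with few UMIs, in which 4 MALP markers were found, stayed unnamed because its 10 leading genes held as many markers of other classes as of MALP. The member genes were kept out of the genes used for clustering. Cluster sizes can reflect the sort as well as the tissue, and no difference between the conditions is read from them.

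All 6 genes are protein-coding. Igfbp4 lies at chr11:99041244-99054392 (GRCm38, plus strand), Igfbp3 at chr11:7206086-7213923 (minus strand), Igfbp7 at chr5:77349240-77408041 (minus strand) and Igfbp6 at chr15:102144362-102149511 (plus strand). Igfbp2 at chr1:72824503-72852474 (plus strand) and Igfbp5 at chr1:72857932-72874884 (minus strand) are neighbours that face each other tail to tail across 5457 bp. The 100 bases before the RefSeq start of the 4 members that carried nearly all UMIs of the family are printed here, 5′ to 3′ on the strand of the gene, because these genes shared a peak in one cell class while their promoters differ. They come from RefSeq on GRCm38, at chr11:7213924-7214023, chr11:99041144-99041243, chr1:72874866-72874965 and chr5:77408046-77408145 in the order printed. The span of Igfbp5 given above reaches 72874884 on the minus strand, so the last bases printed for this gene lie inside that span. Distances below are counted from the RefSeq start, and for Igfbp5 they would be shorter from the end of that span. Capitals mark 3 forms of the TATA box, which are TATAAA as the usual form, TATATA as a repeat form and TATTTAA as a longer form, and the GC box, GGGCGG, all on either strand.
Igfbp3: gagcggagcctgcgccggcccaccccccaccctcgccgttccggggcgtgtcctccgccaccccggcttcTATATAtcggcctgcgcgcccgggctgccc
Igfbp4: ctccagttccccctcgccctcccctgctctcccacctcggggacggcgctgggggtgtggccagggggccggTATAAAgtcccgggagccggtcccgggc
Igfbp5: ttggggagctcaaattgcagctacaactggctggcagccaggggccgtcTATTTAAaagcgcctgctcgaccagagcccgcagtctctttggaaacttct
Igfbp7: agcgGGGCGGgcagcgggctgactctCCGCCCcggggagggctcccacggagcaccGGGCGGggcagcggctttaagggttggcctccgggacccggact

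Igfbp3, Igfbp4 and Igfbp5 each held 1 TATA form, which began 30, 28 and 51 bases before the start, and Igfbp7 held none of the 3 forms. In its whole window of 300 bases Igfbp7 held 4 GC boxes, which began 110, 96, 74 and 44 bases before the start, so that the one farthest from the start is outside the stretch printed. Of the members not printed, Igfbp6 held the usual TATA form in its window, and Igfbp2 held a GC box in 1 of its 2 windows. The TATA forms were thus not limited to members that peak in MALP-like cells. These motifs were chosen after the sequences were read. Of the 32851 mouse promoters of 300 bases in the same table, 13.6% hold the usual TATA form, 5.67% the repeat form, 4.51% the longer form and 35.7% a GC box, and 20.2% hold at least 1 of the TATA forms. The cAMP-response half-site TGACG, searched because parathyroid hormone signals through cAMP, was in 20.8% of all promoters and in none of the member windows, which says only that these letters are not in these windows.

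Among the named classes, Igfbp3, Igfbp4, Igfbp5 and Igfbp7 were highest in MALP-like cells in both libraries. Levels are given as counts per 1000000 (CPM), from the UMI sums of each class in each library, with exact Poisson 95% intervals that cover counting error only. As each captured 3′ end counts once, CPM of different genes can be set side by side without a correction for length. Together the family made up 17372 CPM in vehicle MALP-like cells and 14364 CPM in teriparatide MALP-like cells, against 7852 and 3971 in preOB-like, 1351 and 1005 in COP-like and 79.6 and 170 in OB-like cells.

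Igfbp4 stood at 6681 CPM (6557 to 6808) in vehicle and 6541 (6394 to 6691) in teriparatide MALP-like cells, and all 125 and 80 of them held at least 1 UMI. Igfbp5 stood at 6886 (6759 to 7014) and 5310 (5178 to 5446). Igfbp7 stood at 3298 (3210 to 3387) and 2105 (2022 to 2191). These 3 genes were found in 98.8% to 100% of MALP-like cells, so that nearly every cell of the class held UMIs of all 3. Igfbp3 was lower and patchier, at 507 CPM (473 to 543) and 407 (371 to 445), in 84.8% and 78.8% of cells. MALP-like cells held 92.6% and 90.6% of all Igfbp3 UMIs in kept cells although they made up 22.8% and 6.57% of those cells.

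**Figure D1:**
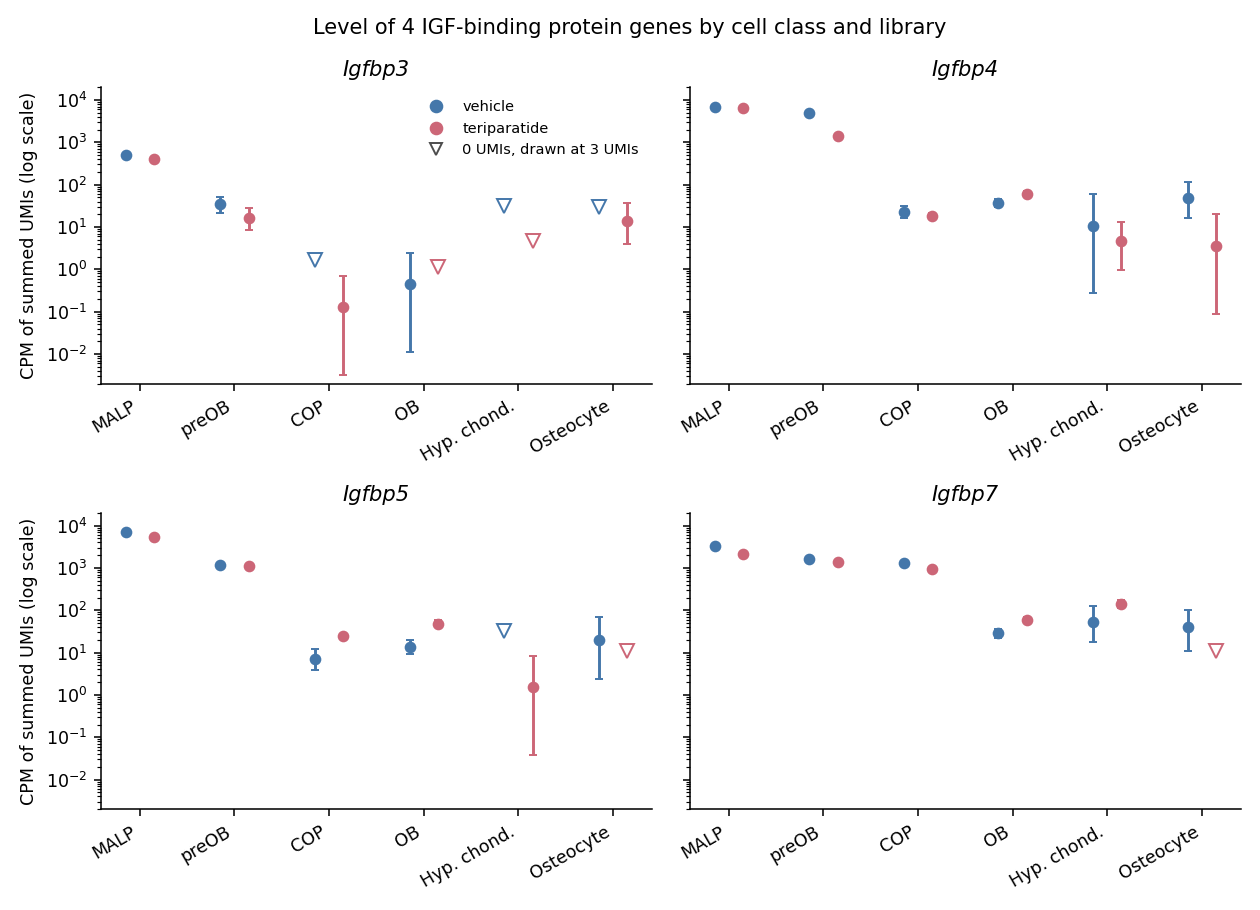
Level of Igfbp3, Igfbp4, Igfbp5 and Igfbp7 in 6 cell classes (x axis) in CPM of summed UMIs on a log scale (y axis), for the vehicle and teriparatide libraries; points are the level of a class in 1 library, bars exact Poisson 95% intervals, and open triangles mark 0 UMIs, drawn at the level 3 UMIs would give. All 4 genes peak in MALP-like cells, Igfbp4 in preOB-like cells differs between the libraries (4941 and 1448 CPM), and Igfbp7 alone is high in COP-like cells (1318 and 958 CPM).

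The order of the other classes differed between the genes. For Igfbp4 the preOB-like class came next, at 4941 CPM (4778 to 5108) in vehicle and 1448 (1363 to 1538) in teriparatide, which put MALP-like cells 1.35-fold above it in vehicle and 4.52-fold in teriparatide. For Igfbp5 the preOB-like class came next at 1180 and 1108 CPM, 5.83-fold and 4.79-fold below MALP-like cells. These folds depended on which cells were called preOB-like. When cells were instead assigned 1 by 1 to the class of their highest marker score, they were 8.25 and 9.67 for Igfbp4. For Igfbp5 they were then 17.3 and 7.96. With classes taken whole from the main clusters, neither gene exceeded the 61.1 CPM of Igfbp4 in teriparatide OB-like cells in OB-like, COP-like, osteocyte-like and hypertrophic chondrocyte-like cells. At a resolution of 1.0 a COP-like cluster of 4 vehicle and 11 teriparatide cells did, with Igfbp4 at 97.7 and 171 CPM. Its Igfbp5 was at 0 and 395 CPM. In the vehicle library the osteocyte-like, OB-like and COP-like levels of Igfbp4 were 49.1, 37.0 and 23.2 CPM, each with a counting interval that overlapped the next. The same held for Igfbp5, at 19.6, 13.6 and 7.18 CPM. Overlap does not show that levels are equal, and the osteocyte-like values rested on 5 and 2 UMIs.

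Igfbp7 was the member shared most widely. It stood at 1668 CPM (1574 to 1766) and 1379 (1295 to 1467) in preOB-like cells and at 1318 (1266 to 1372) and 958 (937 to 980) in COP-like cells. The preOB-like levels were 1.98-fold and 1.53-fold below MALP-like cells. Which class came next after MALP-like cells depended on the setting. When cells were assigned 1 by 1 by marker score, the COP-like class came next in both libraries. The same held with cells of up to 20% mitochondrial UMIs. In teriparatide it also held in female cells and without the 5 cells with most UMIs of the gene. In the other settings the preOB-like class came next. In COP-like cells Igfbp7 made up 97.5% and 95.4% of the family's UMIs and was found in 95.5% and 98.1% of cells. That made it close to the only family member of that class. Below these classes the level dropped to 53.6 CPM (17.4 to 125) and 140 (113 to 172) in hypertrophic chondrocyte-like cells, which express the Col10a1 of mature growth plate cartilage.

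Igfbp6 was sparse, with 28 UMIs in kept vehicle cells and 70 in kept teriparatide cells. PreOB-like cells held 20 and 14 of these UMIs, COP-like cells 5 and 29, and hematopoietic-like cells 1 and 24. A hematopoietic-like cluster led by Cxcl2 and Il1b stood at 26.6 CPM (9.78 to 58.0) in 42 teriparatide cells, on 6 UMIs, and at 0 UMIs in 8 vehicle cells. Among the mesenchymal classes the highest level of Igfbp6 was in preOB-like cells, at 28.4 CPM (17.4 to 43.9) and 19.1 (10.4 to 32), from 3 and 5 cells. In vehicle that level overlapped the next class, and in teriparatide it was 5.23-fold above COP-like cells at 3.65 CPM. MALP-like cells, so rich in Igfbp3, Igfbp4, Igfbp5 and Igfbp7, held 0 and 1 UMI of Igfbp6, where 0, read as up to 3 UMIs, allows up to 1.83 CPM. Igfbp6 thus had the opposite order of preOB-like and MALP-like cells from Igfbp3, Igfbp4, Igfbp5 and Igfbp7.

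Igfbp2, next to Igfbp5 on chromosome 1, was all but undetected. Over all kept cells it had 0 UMIs in vehicle and 1 in teriparatide, in an OB-like cell. The 0 UMIs in MALP-like cells allow up to 1.83 CPM in vehicle and 2.62 in teriparatide, against 6886 and 5310 CPM of its neighbour in the same cells. Expression below that depth was not detectable.

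**Figure D2:**
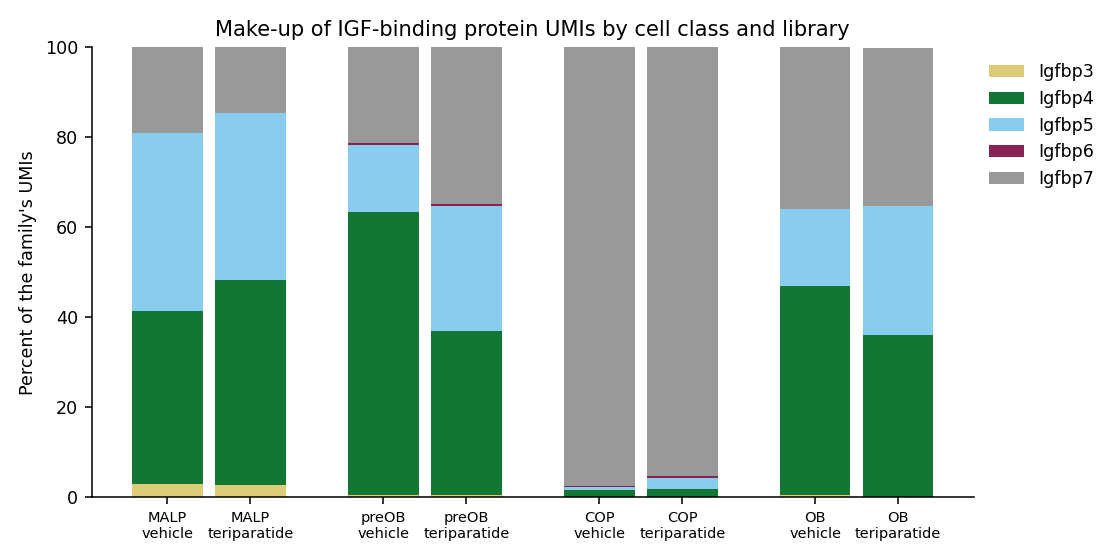
Make-up of the family by cell class and library: the share of each member (y axis, percent of the UMIs of Igfbp2 to Igfbp7) in the 4 classes with most family UMIs (x axis). Igfbp7 takes 97.5% and 95.4% in COP-like cells, and the share of Igfbp4 in preOB-like cells is 62.9% in vehicle and 36.5% in teriparatide.

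Erythroid-like cells, which should lack these genes, were taken as the background. What gave them UMIs of these genes was not tested. The 17 Igfbp4 UMIs of the teriparatide erythroid-like cells were all in 3 cells. Erythroid-like cells held Igfbp4 at 4.0 and 8.65 CPM in 3.92% and 1.82% of cells, Igfbp5 at 2.0 and 3.05 CPM in 1.96% and 1.82%, and Igfbp7 in 0 of 51 vehicle cells and 3.64% of teriparatide cells, at median depths of 9189 and 10463 UMIs. The levels in MALP-like, preOB-like and, for Igfbp7, COP-like cells were far above this background. The Igfbp4 of OB-like cells, in 35.4% and 47.3% of cells at median depths of 17602 and 25465 UMIs, was above it too, and after thinning every cell to 3369 UMIs the shares were 6.38% of the 94 vehicle and 16.5% of the 91 teriparatide OB-like cells of that depth, against 0 of 33 and 1.48% of 135 erythroid-like cells.

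The teriparatide to vehicle ratio was read within each class, for members with at least 50 UMIs in the class over both libraries, and a gene was counted as past the fold at 1.5-fold in either direction, the fold used by the study. Ratios are log2 of the 2 CPM values with a binomial 95% interval for counting error. In MALP-like cells 4 of the 6 members were counted and 0 were higher and 1 lower, against a background of 8.24% of 6871 genes higher and 10.1% lower. In preOB-like cells 0 of 3 were higher and 1 lower, against 8.68% and 18.0% of 4390 genes. In COP-like cells 1 of 3 was higher and 0 lower, against 8.29% and 16.9% of 9230 genes, and in OB-like cells 3 of 3 were higher, against 6.60% higher and 13.9% lower of 6330 genes. The median ratio of all genes was -0.08, -0.14, -0.20 and -0.15 in these classes (log2), and dividing by it raised the share of calls that were higher from 44.9% to 57.9%, from 32.5% to 52.7%, from 32.9% to 64.8% and from 32.2% to 57.1%. The called members number 6 of 13 pairs of a member and a class, which share libraries and cells.

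**Figure D3:**
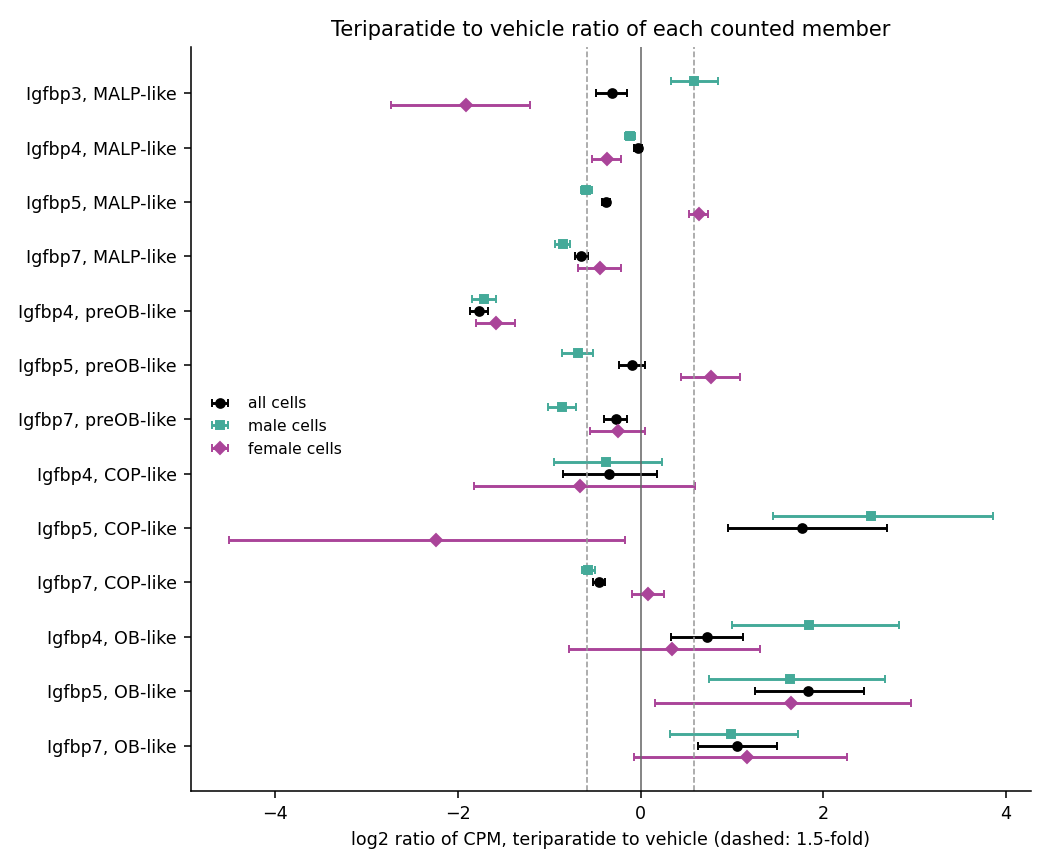
Log2 ratio of teriparatide to vehicle CPM (x axis) for each member with at least 50 UMIs in a class (y axis), in all cells, male cells and female cells; bars are binomial 95% intervals for counting error and dashed lines mark 1.5-fold. Igfbp4 in preOB-like cells is lower by more than 1.5-fold in all 3 sets of cells, while Igfbp3 and Igfbp5 in MALP-like cells and Igfbp5 in preOB-like cells lie on opposite sides of 0 in male and female cells.

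Igfbp4 differed by 1.5-fold or more in preOB-like cells. The 4941 CPM of the vehicle library rested on 3475 UMIs and the 1448 CPM of the teriparatide library on 1064, a log2 ratio of -1.77 (-1.87 to -1.67). The median cell held 2800 CPM in vehicle and 861 in teriparatide. The 10th and 90th percentiles were at 100 and 12957 CPM in vehicle and at 0 and 3608 in teriparatide. The cells of the libraries thus overlapped in the lower part of the vehicle range. The 75th percentile of the teriparatide cells, 2070 CPM, was below the vehicle median. The 5 cells with most UMIs held 46.7% and 46.1% of the total, and without them the ratio was -1.84. Within male cells it was -1.71 (-1.84 to -1.58) and within female cells, of which teriparatide had 6, it was -1.59 (-1.80 to -1.38).

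MALP markers moved with it. The summed level of the 5 MALP markers Lepr, Cxcl12, Vcam1, Pdgfrb and Adipoq in preOB-like cells was 5566 CPM in vehicle and 2524 in teriparatide, with none of the 5 at 0 in either library, while that of the 5 preOB markers was 1809 and 3323. The sums of the marker lists of the other bone classes were higher in teriparatide too, but not every gene in them was. The OB list was at 10939 and 21919 CPM. The hypertrophic chondrocyte list was at 2669 and 4680, with Ihh found in vehicle but at 0 in teriparatide. The osteocyte list was at 83.9 and 289 CPM, with Sost at 0 in both and Mepe at 0 in teriparatide alone. The COP list was at 91.0 and 124. The part of these lists in the result was not tested. Among preOB-like cells without a UMI of Adipoq or Lepr, 17 in vehicle and 22 in teriparatide, Igfbp4 stood at 872 CPM (734 to 1030) and 553 (472 to 644), a log2 ratio of -0.66 (-0.99 to -0.32). Among the 42 and 31 with such a UMI it stood at 6144 and 2067 CPM, a ratio of -1.57. The direction was the same in both subsets, the sizes differed, and when cells were instead assigned 1 by 1 to the class of their highest marker score the ratio was -0.45 and no longer past 1.5-fold. By that score 36 of the 112 preOB-like cells went to MALP-like, and 42 of all 1031 mesenchymal cells lay within 0.1 of their next class.

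Igfbp5 and Igfbp7 in preOB-like cells behaved differently from Igfbp4. Over all preOB-like cells Igfbp5 was at 1180 CPM in vehicle and 1108 in teriparatide, a ratio of -0.09 (-0.23 to 0.05) that was 0.05 after median scaling, and Igfbp7 was at 1668 and 1379, a ratio of -0.27 (-0.40 to -0.15). Neither passed 1.5-fold over all cells. In male cells both did, with Igfbp5 at 1895 and 1175 CPM, a ratio of -0.69 (-0.86 to -0.52), and Igfbp7 at 2282 and 1257 CPM, a ratio of -0.86 (-1.02 to -0.70). In the 22 and 6 female cells Igfbp5 was at 728 and 1242 CPM, a ratio of 0.77 (0.45 to 1.09), and Igfbp7 at 1327 and 1120 CPM, a ratio of -0.24 (-0.55 to 0.05). In the cells without a UMI of Adipoq or Lepr, however, Igfbp5 stood at 274 CPM (199 to 368) and 679 (589 to 779), a ratio of 1.31, and Igfbp7 at 872 (734 to 1030) and 1695 (1551 to 1849), a ratio of 0.96. In the cells with one, Igfbp5 was level, at 1448 and 1404 CPM, and Igfbp7 was at 1903 and 1160. The near-even totals of both genes were thus sums over cells that differed in opposite directions or not at all, on counts from as few as 17 cells. This split was chosen after the values of Igfbp4 were seen.

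**Figure D4:**
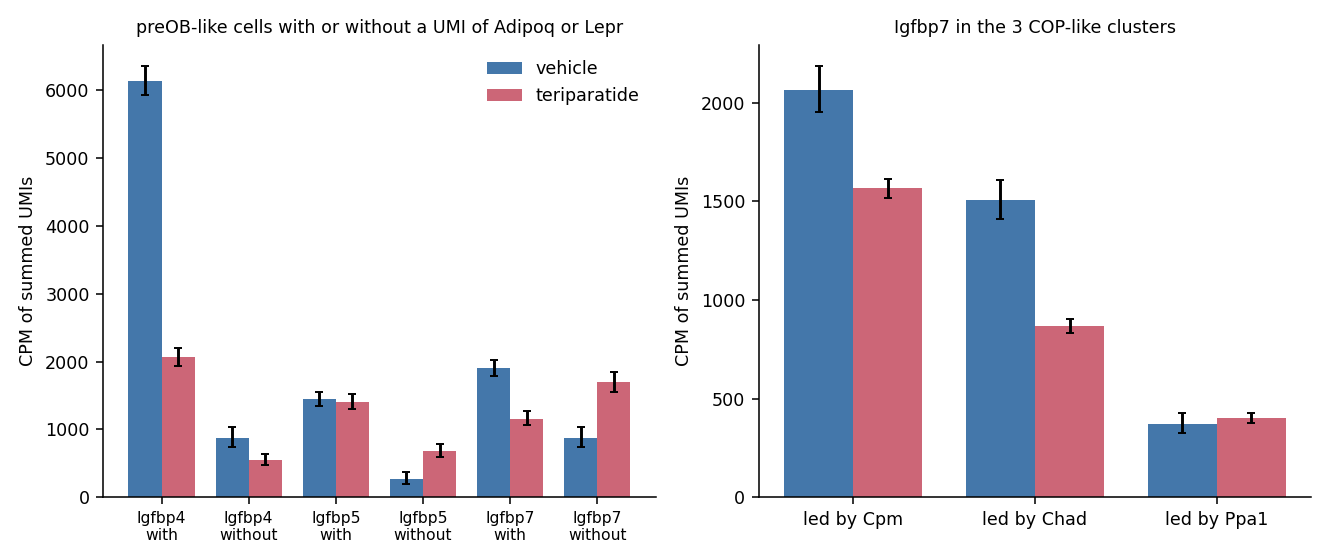
Left, level of Igfbp4, Igfbp5 and Igfbp7 (y axis, CPM of summed UMIs) in preOB-like cells with or without a UMI of the MALP markers Adipoq or Lepr (x axis); right, level of Igfbp7 in the 3 clusters that make up the COP-like class. Bars stand for the vehicle and teriparatide libraries and error bars for exact Poisson 95% intervals; Igfbp4 is lower in teriparatide in both sets of preOB-like cells, and Igfbp7 is lower in teriparatide in the COP-like clusters led by Cpm and Chad (2067 against 1566 CPM and 1508 against 868 CPM) but not in that led by Ppa1 (373 against 402 CPM).

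In MALP-like cells Igfbp7 was the 1 member past the fold, at 3298 CPM in vehicle and 2105 in teriparatide, a log2 ratio of -0.65 (-0.72 to -0.58). It was -0.85 (-0.94 to -0.77) in male cells and -0.45 (-0.69 to -0.22) in female cells, and -0.57, short of 1.5-fold, after median scaling. The median cell held 2765 CPM in vehicle and 1982 in teriparatide. Igfbp4 was at almost the same level in the libraries, with a ratio of -0.03 (-0.07 to 0.01), or 0.05 after median scaling. Igfbp5 lay between these members, at 6886 and 5310 CPM and a ratio of -0.37 (-0.42 to -0.33). At a resolution of 1.0 Igfbp5 was at 6420 and 5706 CPM in a cluster of 65 and 52 cells, a ratio of -0.17. In the other cluster, of 60 and 28 cells, it was at 7540 and 4397 CPM, a ratio of -0.78 and past 1.5-fold. Igfbp7 had ratios of -0.78 and -0.48 in these clusters.

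Igfbp3 and Igfbp5 in MALP-like cells depended on the sex of the cells. Igfbp3 was at 264 CPM in vehicle and 397 in teriparatide male cells, a log2 ratio of 0.59 (0.34 to 0.85), and at 750 and 199 CPM in female cells, a ratio of -1.92 (-2.73 to -1.21). Its ratio over all cells, -0.32 (-0.49 to -0.15), was thus of the other sign than in the 51 and 62 male cells. Igfbp5 was at 6801 and 4508 CPM in male cells, a ratio of -0.59 (-0.65 to -0.53), and at 7046 and 10971 in female cells, a ratio of 0.64 (0.53 to 0.74). The teriparatide library had only 7 female MALP-like cells, and the number of mice they came from is not known, so the difference between the sexes was not tested.

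In COP-like cells Igfbp7 was at 1318 CPM in vehicle and 958 in teriparatide, a log2 ratio of -0.46 (-0.53 to -0.39) that stayed within 1.5-fold. It was -0.57 (-0.65 to -0.50) in male cells and 0.08 (-0.09 to 0.26) in female cells. The class was made of 3 clusters with different levels of the gene. The cluster led by Cpm and Sfrp5 had 2067 CPM in vehicle and 1566 in teriparatide, that led by Chad and Stc2 1508 and 868, and that led by Ppa1, with the replication gene Top2a, 373 and 402. At a clustering resolution of 1.0, 13 and 54 cells led by Ppa1 were at 344 and 400 CPM, and a separate 4 and 11 cells led by Top2a and Mki67 were at 543 and 414 CPM. At that resolution 8 and 64 cells led by Stc2 and Chad were at 874 and 516 CPM, a ratio of -0.76. A separate 16 and 35 cells led by R3hdml were at 1729 and 1460 CPM, a ratio of -0.24. The part of these unequal cell numbers in the ratio of the main cluster led by Chad and Stc2 was not tested. The ratio was -0.40, -0.80 and 0.11 in the 3 clusters at the main resolution.

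Of all Igfbp7 UMIs in kept cells, COP-like cells held 24.6% in vehicle and 66.1% in teriparatide and MALP-like cells 55.6% and 20.9%. These shares follow the number of cells of each class in a library, which the sort can set, and are no comparison of the conditions. Igfbp4 and Igfbp5 came mostly from MALP-like cells in both libraries, at 68.0% and 73.0% of Igfbp4 and 89.7% and 80.3% of Igfbp5.

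Igfbp5 was the 1 member counted as higher in COP-like cells, at 7.18 CPM (3.82 to 12.3) in vehicle and 24.4 (21.1 to 28.1) in teriparatide, a log2 ratio of 1.76 (0.96 to 2.70). It rested on few cells. Of the 194 teriparatide UMIs 88.1% were in 5 cells, only 7.58% of cells held any against 12.1% in vehicle, and without the 5 top cells of each library the ratio was 0.70. Of these UMIs 145 were in the cluster led by Ppa1, and 143 of them in 11 cells that formed a cluster of their own at a resolution of 1.0. The ratio was -0.13 with cells of up to 20% mitochondrial UMIs and -2.24 in female cells, on 10 UMIs.

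OB-like cells, the matrix-forming cells marked by Col1a1 and Bglap2, held little of the family but more in the teriparatide library. Igfbp4 was at 37.0 CPM (29.5 to 45.8) and 61.1 (52.0 to 71.4), a log2 ratio of 0.73 (0.34 to 1.12). Igfbp5 was at 13.6 (9.27 to 19.4) and 48.5 (40.4 to 57.7), a ratio of 1.83 (1.25 to 2.45). Igfbp7 was at 28.6 (22.1 to 36.4) and 59.6 (50.6 to 69.7), a ratio of 1.06 (0.63 to 1.5). In male cells the ratios were 1.84 (1.0 to 2.83) for Igfbp4, at 17.9 and 64.4 CPM, 1.64 for Igfbp5 and 0.99 for Igfbp7. Female OB-like cells of the teriparatide library numbered 5. All 3 genes were higher under both scalings, and a UMI was found in 35.4% and 47.3% of cells for Igfbp4, 14.6% and 25.8% for Igfbp5 and 29.2% and 55.9% for Igfbp7.

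Markers of several other cell types moved with these low levels. The 5 MALP markers summed to 35.2 CPM in vehicle OB-like cells, with Pdgfrb at 0, and to 79.8 CPM in teriparatide OB-like cells, with Adipoq at 0. The 4 osteocyte markers summed to 354 and 1031 CPM, with Sost at 0 in both, the 4 hypertrophic chondrocyte markers to 37.8 and 197, with Ihh at 0 in both, the 5 neutrophil markers to 7.92, with Ltf at 0, and 166, and the 8 erythroid markers to 19.4, with Alas2 and Klf1 at 0, and 135, with Klf1 at 0. The 5 COP markers were lower, at 725 CPM, with Sox5 at 0, and 335. The part of these last 5 lists in the result was not tested. Without the OB-like cells that held a UMI of Adipoq or Lepr, which left 64 and 37 cells, Igfbp4 was at 22.2 and 19.4 CPM and its ratio turned to -0.19. Igfbp5 was then at 10.3 and 28.1 CPM and Igfbp7 at 20.6 and 38.9, with ratios of 1.45 and 0.92. This removal of cells was not equal in the libraries. In teriparatide it rested on Lepr alone, and finding a UMI depends on depth, at medians of 17602 and 25465 UMIs. In both libraries 71.0% and 70.9% of the Igfbp5 UMIs of OB-like cells were in 5 cells.

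**Figure D5:**
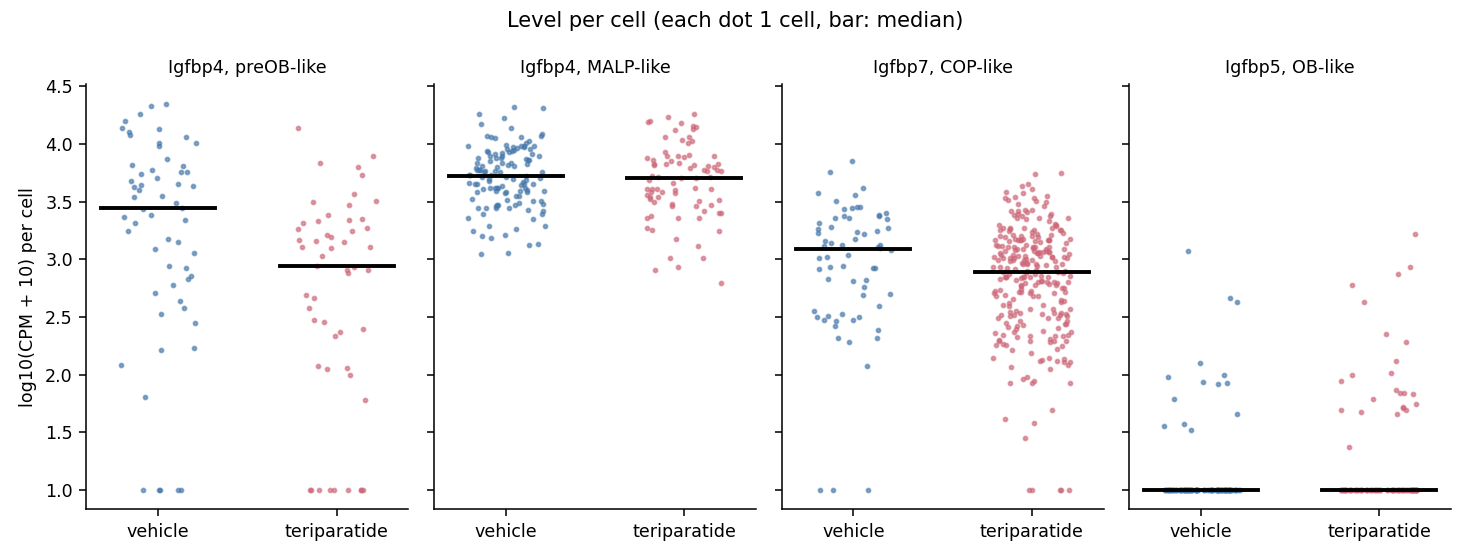
Level in single cells, as log10 of CPM plus 10 (y axis), of Igfbp4 in preOB-like and MALP-like cells, Igfbp7 in COP-like cells and Igfbp5 in OB-like cells of the vehicle and teriparatide libraries (x axis); each dot is 1 cell, bars are medians, and dots at 1.0 are cells with 0 UMIs. Igfbp4 spreads widely in preOB-like cells and narrowly in MALP-like cells, and most OB-like cells hold 0 UMIs of Igfbp5.

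Over 30 pairs of a cluster and a library with at least 10 cells, which share library, depth and cell lineage, the patterns of the members were compared with those of 6280 genes by the Pearson correlation of log2(CPM + 1). The gene most like Igfbp4 was Igfbp5 (r = 0.90), followed by the growth factor gene Vegfc (0.90) and Kng2 (0.89). Igfbp5 was most like Cyp1b1 (0.95), Mylk (0.94) and Kng1 (0.94), and Igfbp7 was most like Colec12 (0.96), Synpo (0.95) and Gpc6 (0.95). Igfbp3 stood with Gm4951 (0.98), the interferon-inducible GTPase gene Iigp1 (0.97) and Ms4a4d (0.95). This likeness was between clusters and did not hold in the same way inside the MALP-like class. At a resolution of 1.0 Iigp1 was among the 10 leading genes of one MALP-like cluster, with Igfbp3 at 386 and 347 CPM. Igfbp3 was among those of the other, at 678 and 544 CPM. Igfbp7 was the least like the others, with r = 0.54 to Igfbp3, 0.63 to Igfbp4 and 0.74 to Igfbp5.

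Within a class the members did not go together in the same way. Across the 56 vehicle and 51 teriparatide preOB-like cells thinned to one depth, Spearman's rho of Igfbp4 and Igfbp7 was 0.66 and 0.43, while that of Igfbp5 and Igfbp7 was 0.14 and -0.16. Across 123 and 79 MALP-like cells every pair among Igfbp3, Igfbp4, Igfbp5 and Igfbp7 lay between -0.35 and 0.26. The pair at -0.35, in teriparatide, was Igfbp3 and Igfbp4, at -0.19 in vehicle. In such sparse counts weak values are not findings.

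The other 15 genes listed for the pathway were counted in the same way. In MALP-like cells 9 had enough UMIs and 1 was higher and 1 lower, in preOB-like cells 2 of 7 were higher and 1 lower, in COP-like cells 2 of 11 were higher and 3 lower, and in OB-like cells 2 of 5 were higher and 0 lower. Over all counted genes 8.24% were higher and 10.1% lower in MALP-like cells, and 8.68% and 18.0% in preOB-like cells. In COP-like cells these shares were 8.29% and 16.9%, and in OB-like cells 6.60% and 13.9%. The median log2 ratio of the list was -0.13, 0.14, 0.02 and 0.36 in these 4 classes, against -0.08, -0.14, -0.20 and -0.15 over all counted genes.

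Among the ligands, Igf1 was lower in the 3 classes that held it. It was at 368 CPM in vehicle and 183 in teriparatide MALP-like cells (log2 ratio -1.01), at 287 and 127 in preOB-like cells (-1.18) and at 627 and 188 in COP-like cells (-1.74). All 1135 vehicle UMIs of Igf1 in COP-like cells were in male cells, where the ratio was -1.84. The 11 vehicle and 25 teriparatide female COP-like cells held 0 and 15 UMIs. OB-like cells held 2 and 0 UMIs of Igf1. Igf2 was at 19.9 and 84.4 CPM in preOB-like cells (2.08) and at 20.4 and 12.6 in COP-like cells (-0.70). Of the 62 teriparatide Igf2 UMIs in preOB-like cells 40 were in 6 female cells, and in male cells the ratio was 1.30 (-0.13 to 3.06) on 5 and 22 UMIs, too few to be counted. In COP-like cells it was -1.0 in male cells and 1.28 (-0.45 to 3.66) in female cells, the latter on 3 and 23 UMIs. In MALP-like cells, where it was -0.14 over all cells, it was -1.12 in male cells.

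Of the receptors, Igf1r was at 48.9 CPM in vehicle and 112 in teriparatide MALP-like cells (1.20), at 72.5 and 112 in preOB-like cells (0.62), at 30.8 and 54.2 in OB-like cells (0.82) and at 98.3 and 124 in COP-like cells (0.33, within 1.5-fold). In male cells these ratios were 0.97, 0.96, 1.18 and 0.37, and in female cells 0.40, -0.29, -0.14 and 0.04, the first 3 of them on at most 9 teriparatide UMIs. Igf2r, which clears Igf2, and Insr did not pass 1.5-fold in any of these classes where they were counted. Of the adaptors, Irs2 was at 61.3 and 95.9 CPM in COP-like cells (0.65), with 0.96 in male cells and -1.07 (-1.77 to -0.36) in female cells, and Irs1 stayed within 1.5-fold in all 4 classes.

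Of the proteases that cut the binding proteins, Pappa, which cleaves Igfbp4 and Igfbp5, was highest in the 2 classes where those genes were, at 480 CPM in vehicle and 668 in teriparatide MALP-like cells and 232 and 270 in preOB-like cells, all within 1.5-fold, and it was at 34.8 and 35.3 CPM in COP-like cells. Htra1, a serine protease with Igfbp5 among its substrates, was at 111 and 266 CPM in OB-like cells (1.26), at 1228 and 816 in osteocyte-like cells (-0.59) and at 1025 and 456 in COP-like cells (-1.17). In the 8 and 21 male osteocyte-like cells it was at 756 and 878 CPM, a ratio of 0.22 (-0.33 to 0.80), in male MALP-like cells its ratio was -0.82, against -0.41 over all MALP-like cells, and in female COP-like cells it was -0.60. Stc2, which inhibits Pappa, was at 27.1 CPM in vehicle and 159 in teriparatide COP-like cells (2.55, with 2.64 in male and 1.26 in female cells) and had at most 8 UMIs in each library in OB-like, MALP-like and preOB-like cells. At a resolution of 1.0 Stc2 led a cluster of 8 of the 66 vehicle and 64 of the 264 teriparatide COP-like cells. The part of these unequal cell numbers in its ratio was not tested. Igfbp1, the neighbour of Igfbp3 at a distance of 3539 bp, had 0 UMIs in OB-like, MALP-like, preOB-like and COP-like cells. Igfals, which joins Igfbp3 in its serum complex, had too few UMIs to be counted in them.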

How the data were processed

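The members and all gene lists were chosen with earlier results of these data known. The deposited matrices hold counts of UMIs per gene and barcode, which the authors made with Cell Ranger against mm10. The submitters' notes name version 2.1.0 and the matrix header carries software version 3.1.0. Barcodes with 200 to 6000 genes and at most 10% mitochondrial UMIs were integrated by CCA and clustered in Seurat 5.3.0 (R 4.3.3, 20 components, 2000 variable genes, resolution 0.6) without the marker, member and pathway genes. Hematopoietic-like, erythroid-like and Ptprc+ cells were then removed and the rest reclustered. A cluster was named when at least 3 markers of a fixed list were each found in at least 10% of its cells and above their mean CPM over the other clusters. It stayed unnamed when its 10 leading genes held markers of other classes and no more of its own. Scrublet in scanpy 1.11.5 marked 4 vehicle and 2 teriparatide cells, 0.729% and 0.164% of those kept, which stayed in.

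UMIs were summed per class and library. With 1 library per condition no test, standard error or p-value was computed. The study's methods compared the samples with edgeR, which was not done here. Depths ranged from 10567335 to 26270041 UMIs. Intervals are 95% and exact, and a count of 0 was read as up to 3 UMIs. Named genes were the 6 members, those of the 15 listed pathway genes that reached 50 UMIs in a class, and the 3 genes most correlated with each member that had at least 500 UMIs. The computation of ratios and intervals was tested on simulated Poisson counts, the model the intervals assume. These lacked the uneven spread of UMIs over cells and any variation between libraries, so only the arithmetic was checked. Gene positions come from the GENCODE annotation of GRCm38.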

Additional observations from a re-analysis of the deposited data

Results flagged for a closer look

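The ratio of Igfbp4 had opposite directions in different classes, at 0.73 (log2) in OB-like cells and -1.77 in preOB-like cells, and so had that of Igfbp7, at 1.06 in OB-like cells and -0.65 in MALP-like cells. With 1 library per condition these differences were not tested.

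Male and female cells differed in direction, with counting intervals on opposite sides of 0, in 4 cases that were not tested. Igfbp3 in MALP-like cells was at 0.59 in male and -1.92 in female cells. Igfbp5 was at -0.59 and 0.64 in MALP-like cells, at -0.69 and 0.77 in preOB-like cells and at 2.53 and -2.24 in COP-like cells. Female cells of the teriparatide library numbered 7, 6 and 25 in the MALP-like, preOB-like and COP-like classes, and the last value rests on 6 vehicle and 4 teriparatide UMIs.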

How the results depend on the processing

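No paired analysis was possible because each group has 1 library. Of 139 recomputed log2 ratios of members, 78 stayed within the main interval, 57 moved outside it and 4 of the called ones turned. At a resolution of 1.0 these classes held the same cells as in the main setting, so those ratios could not move. Leaving out doublets removed 1 vehicle and 0 teriparatide mesenchymal cells. Both settings are among the 11 or 10 alternatives counted below. Igfbp5 in COP-like cells turned to -0.13 when the mitochondrial limit was 20%, to -0.044 with the per-cell marker gate and to -2.24 in female cells, and Igfbp4 in OB-like cells turned to -0.19 without cells holding a UMI of Adipoq or Lepr, an alternative chosen after seeing the data. Igfbp4 in preOB-like cells ranged from -1.84 to -0.45 and stayed lower under all 11 alternatives, past 1.5-fold under 10. Igfbp5 and Igfbp7 in OB-like cells stayed higher by over 1.5-fold under all 11. Igfbp7 in MALP-like cells stayed lower under all 10, from -0.85 to -0.45, and past 1.5-fold under 6. The 80 combinations of Igfbp3, Igfbp4, Igfbp5 or Igfbp7 with a library and a setting included the main setting and the resolution of 1.0. These 2 settings gave the same values and are no check on each other. MALP-like cells were highest in 79 of the 80. The exception was Igfbp4 in female vehicle cells, where preOB-like cells were 1.06-fold higher. The causes of these changes were not tested.

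The counts of genes past the fold in OB-like, preOB-like, MALP-like and COP-like cells were 1299, 1173, 1261 and 2326. They became 283, 302, 622 and 842 when cells were thinned to 1 depth, where fewer genes reach 50 UMIs, 4032, 4739, 3605 and 4617 with no filter beyond 1 UMI in each library, and 319, 326, 311 and 600 at a fold of 2. In female cells they became 489 in preOB-like and 758 in COP-like cells.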

Other observations

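Outside the mesenchymal classes, Igfbp4 was found in a hematopoietic-like cluster led by the granule genes Elane, Fcnb and Mpo, at 79.6 CPM (44.5 to 131) in 9 vehicle cells and 148 (131 to 167) in 54 teriparatide cells, with a UMI in 55.6% and 72.2% of cells. In the cluster led by Ccr2 it was at 78.7 CPM (48.7 to 120) in 23 vehicle cells and 27.9 (21.3 to 35.9) in 150 teriparatide cells, with a UMI in 13.0% and 11.3% of cells and 100% and 70% of the UMIs in 5 cells or fewer. These cells had been sorted as CD45-.

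The unnamed cluster, whose cells had a median of 3096 UMIs in vehicle and 1225 in teriparatide, held Igfbp4 at 8203 and 2670 CPM, Igfbp5 at 2239 and 987 CPM and Igfbp7 at 3632 and 783 CPM. Its summed MALP markers were at 23637 and 6700 CPM. The 718 and 862 barcodes above 10% mitochondrial UMIs held Igfbp4 at 911 and 376 CPM, Igfbp5 at 558 and 402 CPM, Igfbp7 at 353 and 220 CPM and Igfbp3 at 41.5 and 9.32 CPM.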
